A study of Mus musculus with 104 samples.

Results

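Junctions with long microhomology are translocation junctions at which 4 or more bases of the read aligned both to the end of the bait and to the start of its partner sequence. They were taken from all 24 tables of a mouse high-throughput genome-wide translocation sequencing (HTGTS) study, in which reads start at a break on a known chromosome (the bait) and run into the sequence it was joined to (the prey). A junction was a member where the bait alignment ended at least 4 read bases at or beyond the start of the prey alignment, and where the prey lay more than 5 Mb from the bait break. A read name that occurred more than once in a table entered a single time. Members were therefore chosen by the measured overlap, and their overlap of 4 or more is a description, not a test. The rule gave 132553 members among 531098 junctions beyond 5 Mb and 2018794 junctions in all. Just inside the threshold lay 57120 junctions with an overlap of 4, and just outside it 94644 with an overlap of 3.

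The study asked whether embryonic stem cells (ESC) and neural progenitor cells derived from them (NPC) form recurrent clusters of DNA breaks under replication stress. All groups carried Xrcc4-/- and p53-/- in a mixed C57BL6/129SVE background, so the controls lacked both genes too. There were 2 ESC lines, NPC from each, a bait on chromosome 7, 12 or 15, and cells given either APH (aphidicolin, an inhibitor of replicative DNA polymerases) or DMSO, in 104 experiments. The tables pool these experiments, and each of the 4 combinations of cell type and treatment is covered by 6 pools that differ in line and bait. Doses and times of treatment are not in the labels, which also do not say whether the experiments of a pool came from separate cultures, and p-values measure only the spread between pools. The 6 pools come from 2 lines, and tests over 6 pairs treat the 3 baits of a line as independent. The files hold DNA junctions, and no markers of ESC or NPC could be examined.

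XRCC4 is the partner of DNA ligase IV and is needed for classical non-homologous end joining. Cells without it still join broken ends by alternative end joining, which often anneals short stretches of identical sequence, called microhomology, after some trimming of the ends. p53 can arrest or kill cells with persistent breaks. Aphidicolin slows replication forks and exposes fragile regions of the genome.

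Before any comparison, the NPC tables of bait 15 needed attention, since the tables of the 2 lines held the same junctions. Identity was read as the same prey position and strand, the same bait end, the same overlap and the same prey end in the read. Each of the 8 experiments of line 1 shared junctions with exactly 1 table entry of line 2, and the shared ones were 50.6 to 63.0% of the distinct junctions of the smaller of the pair. The other 32 pairs of experiments and entries shared at most 0.215%. In 4 of the 8 matches the labelled treatments differed: line 1 APH experiments A and C matched line 2 DMSO experiments A and D, and line 1 DMSO experiments A and D matched the line 2 APH table. Over all other pairs of pools with the same bait, the highest overlap was 3.49% and the median was 0.0633%. Among single experiments, 19.1% of the junctions of NPC line 1 bait 12 APH experiment C were also in the line 2 table of that bait and treatment, and 7.44% of those of ESC line 1 bait 12 DMSO experiment A were also in NPC line 1 bait 12 DMSO experiment B. The line 2 NPC pools of bait 15 are thus not independent of line 1, and which label is right cannot be told apart from the files. The main results that rest on NPC are given with these 2 pools and without them, and shares and mean overlaps by treatment also without the NPC pools of bait 15 of both lines. Counted once, the members numbered 114929 distinct junctions.

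**Figure D1:**
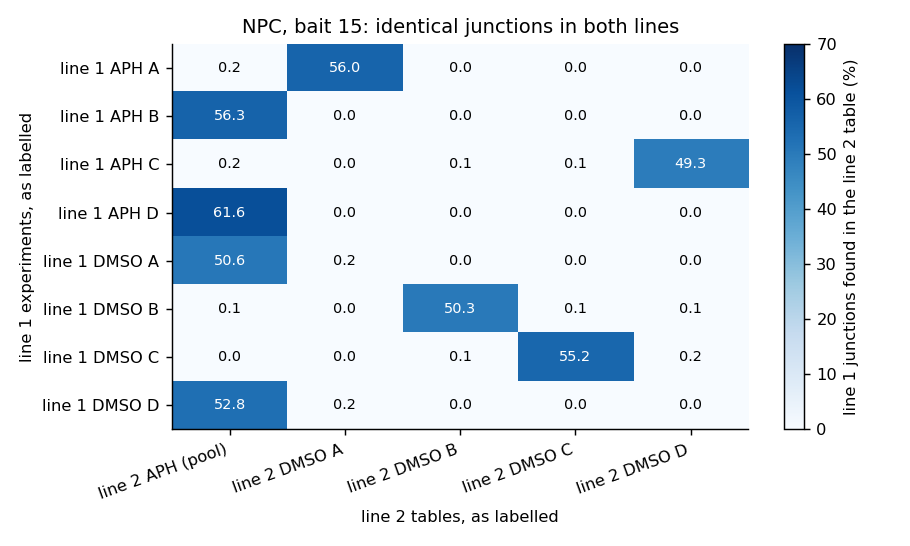
Identical junctions in the NPC tables of bait 15. Each cell gives the percent of a line 1 experiment's distinct junctions (rows) that were found in a line 2 table entry (columns, 4 DMSO experiments and the APH table, whose letters could not be mapped). Every row has 1 cell of 49.3% or more, and 4 of the 8 such cells join APH to DMSO.

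The sequences of the bait ends frame much of what follows, since an exact overlap copies the bait bases at which its junction lies. Junctions that lie deeper in the bait, or past the break, use bases other than those shown here. The last 45 bait bases up to the break are shown for each bait, with the most frequent overlap of its members in capitals. They were read from the deposited junction reads and lie at chr7:80451954-80451998 on the minus strand, chr12:13000816-13000860 on the plus strand and chr15:86848164-86848208 on the plus strand of mm9. No mm9 annotation was used here, so genes at these and later positions are not named.
Bait 7: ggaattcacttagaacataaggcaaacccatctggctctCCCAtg
Bait 12: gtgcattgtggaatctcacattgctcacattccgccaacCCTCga
Bait 15: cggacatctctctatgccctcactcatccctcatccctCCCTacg
The bait 15 end is pyrimidine-rich, and 50% of its last 40 bases are C against 5% G. Exact overlaps of bait 15 members were 57.5% C and 2.78% G. For bait 7 exact overlaps held 32.8% C and 18.6% G, and for bait 12 39.3% and 17.7%.

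The longest exact overlaps that were found in at least 2 pools show what these junctions look like in a read. Capitals mark the bases shared by bait and prey, the bases before them are bait and those after them prey. Prey alignments lay at chr8:68039950-68040175 (minus strand), chr15:9621545-9621744 (plus) and chr1:77464991-77465277 (plus).
Bait 7, 19 bases: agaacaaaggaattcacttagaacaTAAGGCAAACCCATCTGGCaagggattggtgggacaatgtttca
Bait 12, 20 bases: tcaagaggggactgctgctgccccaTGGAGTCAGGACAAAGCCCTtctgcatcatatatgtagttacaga
Bait 15, 22 bases: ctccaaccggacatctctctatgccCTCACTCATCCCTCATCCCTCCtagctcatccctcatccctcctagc
The bait 7 junction was found 7 times in 4 pools, the bait 12 junction 2 times in 2 pools and the bait 15 junction 7 times in 7 pools. The pools of the bait 15 junction include NPC line 2, which is not independent of line 1 for this bait. At the bait 15 junction the prey went on with the repeated unit of the bait after the shared bases.

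Members made up 25% of junctions beyond 5 Mb, against 12.8% of those within 5 Mb of the break. The difference was present in each of the 6 line and bait pairs of both cell types, with 12.2% ± 1.29 (SD, n = 6) near the break and 23.9% ± 2.73 beyond 5 Mb in ESC, and 13.4% ± 1.12 and 25.5% ± 0.978 in NPC. The NPC means without the line 2 pools of bait 15 were 13.6 and 25.5% over 5 pairs. Beyond 5 Mb the most frequent overlap was 2 bases, at 20.9% of junctions, followed by 3 bases at 17.8%. Blunt joins made up 6.64% and junctions with inserted bases 19.1%. From 4 to 8 bases each added base left 0.546 to 0.582 times as many junctions as the length before it. From 8 to 9 bases the ratio was 0.728. Overlaps of 10 or more made up 1.24% of junctions (6592) and overlaps of 15 or more 0.234% (1244).

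Not every overlap was an exact match, because an alignment may run on through a mismatch. Of all members 84.2% matched bait and prey exactly over the whole overlap (95% Clopper-Pearson interval 84.0 to 84.4, which covers counting error only). The exact share fell from 98.4% at 4 bases and 92.5% at 5 to 61.0% at 7 and 34.3% at 9, and was 40.7% at 15 or more. When the overlap was cut back at mismatches, 87.6% of members still held 4 or more bases. The largest group of overlaps with a single mismatch was of 9 bases and came from bait 7. With 6 bait bases lost the bait reads TCTGGCTCT, and 345 members read TCTGCCTCT, the substitution G5C counted from 1 at the 5′ end of the overlap. These members lay at 316 positions in 8 pools.

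Pools differed modestly in the share of long overlaps. In ESC under DMSO the pools held 27.9, 20.9 and 23.1% for baits 7, 12 and 15 in line 1 and 26.7, 27 and 23.5% in line 2. In ESC under APH they held 26.6, 21.6 and 19.4% in line 1 and 24, 25.6 and 20% in line 2. In NPC under DMSO they held 28.2, 22.5 and 26.7% in line 1 and 27, 25.4 and 25.3% in line 2. In NPC under APH the pools lay together, at 25.4, 25.2 and 24.6% in line 1 and 25, 25.2 and 24.9% in line 2. The ranges of the 4 conditions overlapped. Depth differed with cell type, since ESC pools held 4713 to 12945 junctions beyond 5 Mb and NPC pools 12526 to 88587. For a single pool the 95% Clopper-Pearson interval reached from 20.8 to 22.5% in ESC line 1 bait 12 under APH and from 24.3 to 24.8% in NPC line 1 bait 15 under APH.

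**Figure D2:**
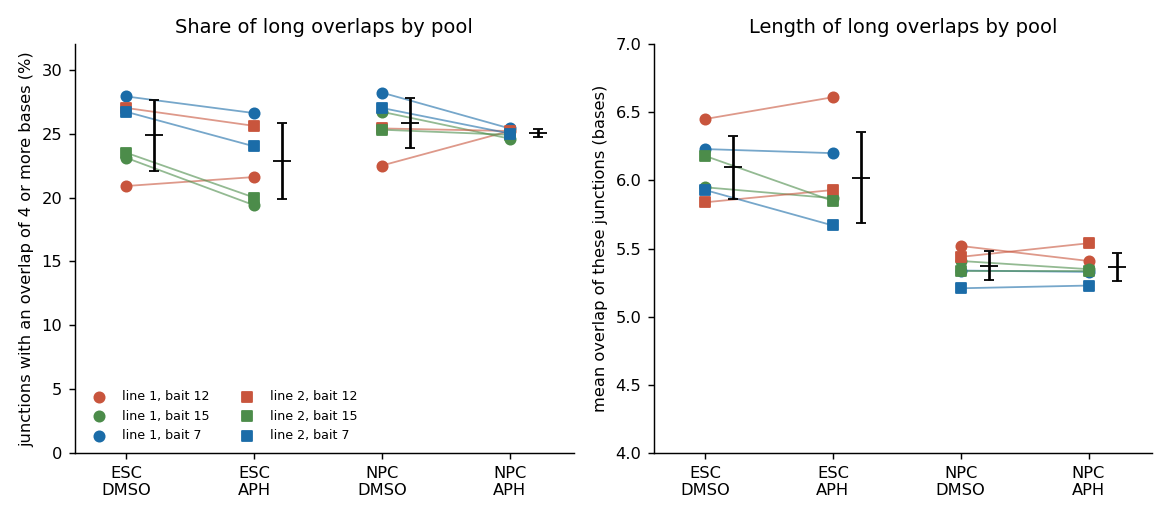
Share of long overlaps (left, percent of junctions beyond 5 Mb) and their mean length (right, bases; the axis starts at 4) in the 24 pools. Points are pools, lines join the 2 treatments of a line and bait, and bars give mean and SD of 6 pools. Shares overlap between all conditions, whereas every ESC pool has a longer mean overlap than every NPC pool.

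APH was paired with DMSO within each line and bait. In ESC the share was 24.8% ± 2.75 (SD, n = 6) under DMSO and 22.9% ± 2.96 under APH, a mean difference of -1.98 points ± 1.66. It was lower in 5 of 6 pairs, and line 1 bait 12 was 0.743 points higher. The exact sign-flip test, two-sided, gave p = 0.0625, and 0.263 adjusted over the 7 comparisons of shares. In NPC the share was 25.9% ± 1.95 under DMSO and 25% ± 0.285 under APH, a mean difference of -0.824 points ± 1.99 with 5 of 6 pairs lower (exact sign-flip test, p = 0.375, adjusted 0.438). With 1 pair left out it ran from -1.52 points, without line 1 bait 12, to -0.413, without line 1 bait 7. Without the NPC line 2 pools of bait 15 the difference was -0.902 points over 5 pairs, and without NPC bait 15 of both lines -0.595 points over 4. The exception was line 1 bait 12 at 2.65 points, where experiment B of the DMSO pool held 14.2% long overlaps and the other 3 held 24 to 26%. Of the 5299 distinct junctions of experiment B, 150 were shared with the ESC experiment named above, and 30 of these 150 were members. Without experiment B the pair differed by 0.254 points and the mean over 6 pairs was -1.22 points (exact sign-flip test, p = 0.0938). Within sequencing runs that held both treatments, 5 of 6 pairs were again lower in each cell type. The difference between the effects in NPC and ESC was 1.15 points ± 1.53 (exact sign-flip test, p = 0.125, adjusted 0.263). It was 0.777 points without the NPC line 2 pools of bait 15 and 0.580 without NPC bait 15 of both lines.

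Cell types were compared within a line, bait and treatment. NPC minus ESC was 1.01 points ± 1.74 under DMSO, with 5 of 6 pairs higher, and 2.17 points ± 2.72 under APH, with 4 of 6 higher (exact sign-flip test, p = 0.156 and 0.188, both adjusted 0.263). With 1 pair left out the difference under DMSO ran from 0.503 points, without line 1 bait 15, to 1.53, without line 2 bait 12. Without the NPC line 2 pools of bait 15 the differences were 0.856 and 1.63 points, and without NPC bait 15 of both lines 0.177 and 0.757 points. The direction changed with the length taken as long. For overlaps of 3 or more NPC was higher by 5.32 points under DMSO and 6.50 points under APH, and for 6 or more it was lower by -2.03 and -1.40 points. It also changed with the treatment of junctions with inserted bases, which averaged 26.8 and 29.0% in ESC under DMSO and APH against 16.7 and 17.2% in NPC. With those left out of the total, NPC was lower by -2.91 and -1.95 points. Sequencing runs with enough junctions in each group were also compared within a line and bait. A single such run held both cell types, for line 1 bait 15. There ESC had 20.2% under APH and 24.4% under DMSO, and NPC 24.6 and 26.7%. Runs that held the cell types from different lines or baits were not looked for.

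Differences between lines and between baits were within the spread of the pools. Line 2 minus line 1 was 0.608 points ± 2.44 over 6 pairs of cell type and bait, 3 of them higher (exact sign-flip test, p = 0.719). Without NPC bait 15 it was 0.837 points over 5 pairs. Mean shares were 26.3% ± 0.865 (SD, n = 4) for bait 7, 24.2% ± 2.17 for bait 12 and 23.4% ± 2.24 for bait 15 (exact permutation of baits within cell type and line, p = 0.176, adjusted 0.263). The bait means spanned 2.91 points, and 3.57 points without NPC line 2, over 3 combinations of cell type and line (exact permutation test, p = 0.306). With overlaps trimmed at mismatches and all pools kept, the means were 23.7, 21.7 and 19.9%. The same exact permutation test then gave p = 0.037, unadjusted. It counts the 2 NPC lines as separate, although their bait 15 pools share junctions.

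The length of long overlaps separated the cell types more clearly than their share. The mean overlap of members was 6.10 bases ± 0.229 (SD, n = 6) in ESC and 5.37 ± 0.104 in NPC under DMSO, and 6.02 ± 0.334 and 5.37 ± 0.102 under APH. ESC pools ran from 5.67 to 6.61 bases and NPC pools from 5.21 to 5.54, with no overlap between the cell types. NPC was lower in 6 of 6 pairs under either treatment, by -0.720 bases ± 0.209 and -0.654 ± 0.313. These pairs are 3 baits in each of 2 lines. The exact sign-flip test gave p = 0.0312 for each, the smallest 6 pairs allow, and 0.0625 adjusted over the 4 comparisons of length, so neither passed after adjustment. Without the NPC line 2 pools of bait 15 the differences were -0.698 and -0.684 bases, lower in 5 of 5 pairs (exact sign-flip test, p = 0.0625, the smallest 5 pairs allow). Without NPC bait 15 of both lines they were -0.737 and -0.725 bases. Cut back at mismatches, they were -0.581 and -0.525 bases. Other features moved with cell type. ESC pools were shallower, and within a line and bait only line 1 bait 15 had a sequencing run with enough junctions of both cell types. Prey alignments of members held 0.86% mismatched bases in ESC and 0.581% in NPC. Members at positions used more than once in their pool were 30.9 and 9.56%. The part of depth, run, mismatches or recurrence in the difference in mean overlap was not tested. APH minus DMSO in mean overlap was -0.0741 bases ± 0.189 in ESC and -0.00741 ± 0.0682 in NPC (exact sign-flip test, p = 0.375 and 0.781).

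The lengths on either side of 6 and 7 bases differed in opposite directions. Averaged over treatments, NPC held 2.27 points more junctions with an overlap of 4 and 1.04 more with 5, in 6 of 6 pairs each. These are percents of all junctions beyond 5 Mb, including those with inserted bases. The latter differed by -11 points (NPC minus ESC), lower in 6 of 6 pairs. How far that shifts the values at other lengths was not tested. At 6 and 7 bases the cell types were level on this scale, with 3 pairs higher and 3 lower. From 9 bases on ESC was higher in 6 of 6 pairs. With the NPC line 2 pools of bait 15 left out the differences at 4 and 5 bases were 2.19 and 0.960 points, higher in 5 of 5 pairs, and ESC was higher in 5 of 5 pairs from 9 bases on. Under APH, overlaps of 10 to 14 made up 1.81% ± 0.894 (SD, n = 6) of ESC junctions and 0.918% ± 0.272 of NPC junctions, and those of 15 or more 0.522% ± 0.219 and 0.141% ± 0.100. Without those 2 pools the NPC values were 0.948 and 0.142%. Among members, overlaps of 10 or more averaged 13.3% in ESC pools of bait 12 and 5.96% in NPC pools. They averaged 8.78 and 2.80% for bait 7 and 8.26 and 3.73% for bait 15, where the 2 NPC pools of line 1 held 3.70 and 3.97%. Over all members, summed over pools and with no test, 82.2% were exact in ESC and 84.6% in NPC. Among overlaps of 10 or more, with the NPC line 2 pools of bait 15 left out, the order was the other way in each bait. Exact were 61.7% in ESC and 48.6% in NPC for bait 12, 45.6 and 17.6% for bait 15, and 43.5 and 24% for bait 7.

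**Figure D3:**
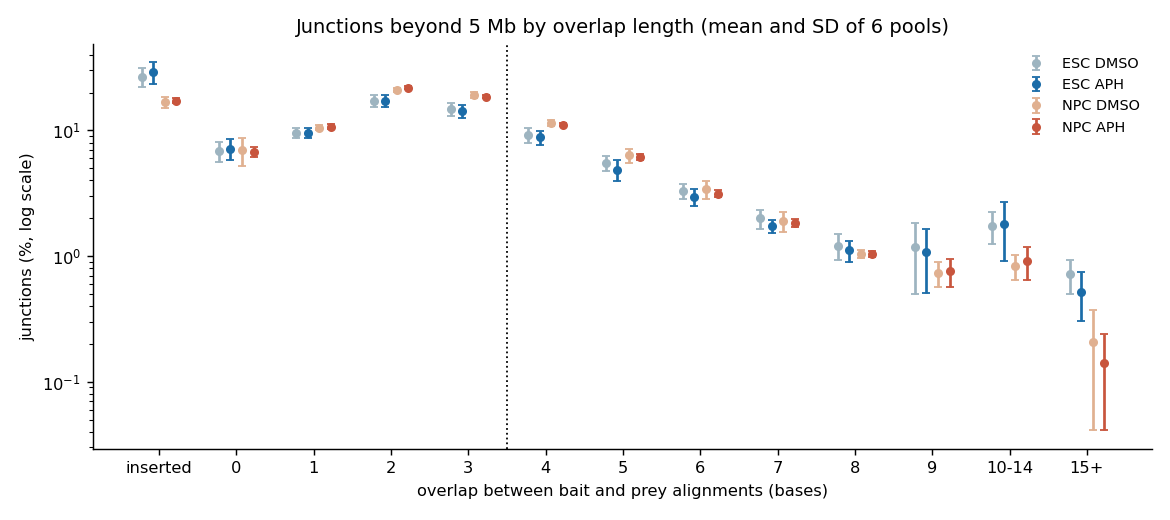
Junctions beyond 5 Mb by overlap length, as percent on a log axis. Points are means of 6 pools, bars are SD, and the dotted line marks the threshold of 4 bases. NPC (orange and red) lies above ESC (grey and blue) from 2 to 5 bases, and ESC lies above NPC among inserted bases and from 9 bases on.

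The share of long overlaps varied widely with the bait base at which the junction lay. Among bait ends with at least 500 junctions, the share of long overlaps ran from 14.9 to 53.8% over 58 ends of bait 7, from 5.05 to 67.6% over 74 ends of bait 12, and from 7.75 to 62.7% over 50 ends of bait 15. These are sums over pools. The 48 ends of bait 15 that remained without the NPC line 2 pools ran from 7.09 to 61.7%. At bait 12, 142 of 2814 junctions at the uncut break end had a long overlap (5.05%), 2136 of 7923 at 2 bases lost (27%), and 210 of 3723 at 10 bases lost (5.64%). Ends were also grouped, after their values were seen, by whether their last 4 bait bases held a CG step, where those bases were known. Those that did were low. For bait 12 the 6 such ends held 9.76% long overlaps against 25.3% over the 54 ends without it. For bait 15 the 4 such ends held 9.37% against 25.1% over 42 ends. Bait 7 has no such end in this stretch, and its 56 scored ends held 25.9%. Bait ends that ran past the break varied as widely. At 1 base past it 12.5% of 4669 junctions of bait 15, 7.88% of 1598 of bait 12 and 31.9% of 1092 of bait 7 had long overlaps. At 3 bases past the break of bait 15 it was 502 of 800 (62.7%), and at 2 bases past that of bait 7 290 of 539 (53.8%). When the mix of bait ends was made equal between pools, the mean shares were 25.2% for ESC and 26.1% for NPC under DMSO, and 23.2 and 24.7% under APH.

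**Figure D4:**
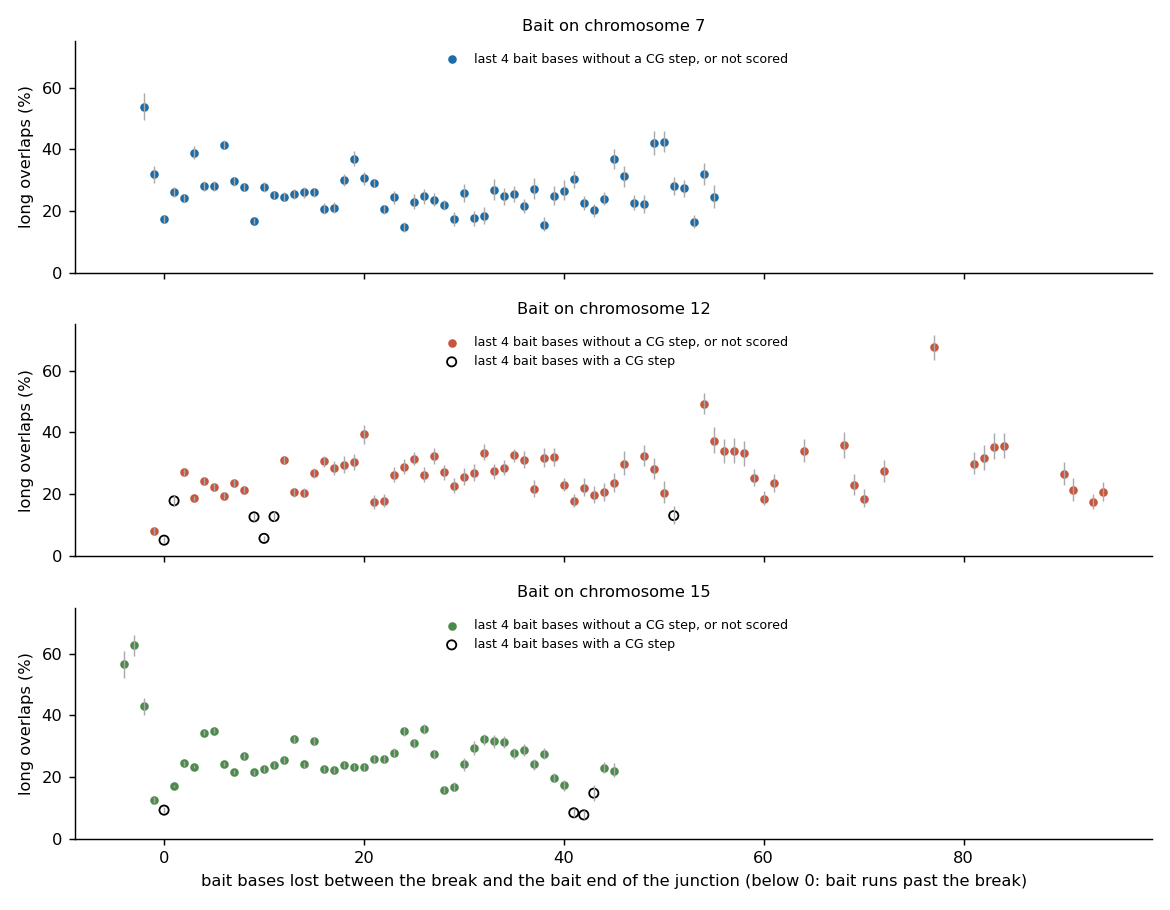
Share of long overlaps (percent of junctions beyond 5 Mb, with 95% Clopper-Pearson intervals) by the number of bait bases lost before the junction, for ends with at least 500 junctions. Open circles mark ends with a CG step in the last 4 bait bases, which lie between 5.05 and 17.8%. The highest point of bait 12, at 77 bases lost, is 67.6%.

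The end of bait 12 at 77 bases lost gave 382 long overlaps among 565 junctions, and 101 of them were the exact 14 bases CTGCTGCTGCCCCA. This stretch of bait 12 holds a short CTG repeat. Among the 2481 overlaps of 10 or more of bait 12, 646 held CTGCTGCTG (26%), and none of those of baits 7 and 15 did. Among the 2888 of bait 15, 1911 held CCCTC or TCCCT (66.2%). Bait 12 ends from 70 to 85 bases lost supplied 14.8 and 12.4% of members in ESC line 1 under APH and DMSO and 8.72 and 7.71% in line 2, against 6.97 to 11% in NPC. Their mean overlap was 9.80 to 11.7 bases in ESC and 7.19 to 9.18 in NPC. Without these ends the mean overlap of bait 12 members was 5.37 to 5.87 bases in ESC and 5.16 to 5.29 in NPC, so the ESC pools of bait 12 still lay above the NPC pools.

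The most frequent overlaps were short and followed the bait end. For bait 12 they were CCTC (987 members), GCCA (914), TTCC (886), CCCT (867) and CACA (698), each 2.11 to 2.99% of members. For bait 15 they were CCCT (4207, 6.03%), TCCC (3445), CCTC (3021), TCCCT (2371) and CTCA (2168). With the NPC line 2 pools left out, CCCT was 6.01% of bait 15 members. For bait 7 they were CCCA (846, 2.84%), CCAT (685), TCTG (672), AGGCA (671) and CTCT (546). All 15 were found in each of the 8 pools of their bait. In bait 15 the same letters recur along the end, and only 43.5% of CCCT overlaps used the copy 3 bases from the break.

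Members were spread over 98156 positions and strands, of which 71.0% were found once, and positions found 10 or more times held 0.478% of members. Junctions present in both lines' NPC tables of bait 15 are counted in each here. With the line 2 pools left out, 91.2% of 90956 positions were found once, and 0.293% of members lay at positions found 10 or more times. All 10 positions with most members were prey of bait 15, with 20 to 32 members in 4 to 8 pools, and with 10 to 26 members in 2 to 6 pools once those 2 pools were left out. At 7 of them the junctions within 50 bases lay on both strands and 11.4 to 55.2% were members. Among these, chromosome 11 positions 69393881 and 69393877 share nearly the same window, with 106 members among 192 and 193 junctions. The windows of the others held at most 42.7% members. At chromosome 4 position 82963098, 30 members stood among 1049 junctions within 50 bases, of which 11.4% had long overlaps and 39.7% lay on the plus strand. The most members, 32 each (16 and 26 without those 2 pools), were at chromosome 11 position 69393881, among 192 junctions of which 55.2% were members, and at chromosome 16 position 31902130, among 232 junctions of which 14.2% were members and 99.1% lay on the plus strand. At the other two nearly every junction at the position was a member, on 1 strand. At chromosome 9 position 104534769 all 21 junctions within 50 bases were members at the same position, with 11 exact bases and 17 distinct prey ends, from all 8 pools of bait 15, of which 16 members in 6 pools remained without those 2. At chromosome 11 position 55983927, 23 of 25 junctions were members with a median overlap of 17 bases, and all 58 junctions within 50 bases lay on the minus strand. Without those 2 pools 19 members in 6 pools remained there.

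Sites where nearly every junction was a member were also among the 3 with most members in baits 7 and 12. The bait 7 site with most members was not of that kind, with 18 members among 24 junctions and 42 among 157 within 50 bases (26.8%), and its position is not described here. Reads are shown for 6 of them, with the shared bases in capitals. Their prey alignments lay at chr9:104534769-104534839 (plus), chr11:55983869-55983927 (minus), chr11:108318881-108319017 (minus), chr8:89305995-89306152 (plus), chr8:47898854-47899163 (minus) and chr7:144660499-144660668 (plus).
Bait 15, chromosome 9: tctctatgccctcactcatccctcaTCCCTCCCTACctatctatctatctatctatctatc
Bait 15, chromosome 11: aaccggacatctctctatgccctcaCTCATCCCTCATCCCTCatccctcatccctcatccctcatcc
Bait 7, chromosome 11: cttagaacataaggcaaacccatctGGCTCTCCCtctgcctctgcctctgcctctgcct
Bait 7, chromosome 8: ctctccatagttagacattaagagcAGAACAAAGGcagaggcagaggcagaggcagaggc
Bait 12, chromosome 8: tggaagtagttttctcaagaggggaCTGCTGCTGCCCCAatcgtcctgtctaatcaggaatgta
Bait 12, chromosome 7: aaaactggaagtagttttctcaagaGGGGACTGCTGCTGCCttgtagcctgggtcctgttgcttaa
In the 4 reads of baits 15 and 7 the prey beyond the overlap is a tandem repeat of short units, and in those of bait 12 it is not. The bait 7 sites on chromosomes 11 and 8 held 16 members in 7 pools and 14 in 8 pools. The bait 12 sites on chromosomes 8 and 7 held 8 members in 7 pools and 7 in 4 pools, which were all the junctions within 50 bases. The third site of bait 12, at chromosome 1 position 48406795, held 6 members in 2 pools with an overlap of 10 bases, none of them exact.

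The share of long overlaps by prey chromosome was averaged over line and bait pairs, leaving out the bait chromosome of each. Chromosome 11 was highest in both cell types, at 26.4% ± 2.79 (SD, n = 6) in ESC and 27.1% ± 0.952 in NPC. The lowest were chromosome 16 in ESC, at 21.8% ± 3.84, and X in NPC, at 24.2% ± 1.54. In NPC without the line 2 pools of bait 15, chromosome 11 held 27% and X 24.3%. The spread between pairs overlaps across chromosomes. Of 435 junctions mapped to the mitochondrial genome 76 had a long overlap (17.5%, 95% Clopper-Pearson interval 14 to 21.4), and of 74 on Y 14 did (18.9%, interval 10.7 to 29.7).

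Long overlaps were then set against the other junctions of the same pool in 500 kb bins outside 5 Mb of any bait break. Of 435 bins with enough counts, long overlaps were over-represented in 5 (1.15%) and under-represented in 10 (2.30%) at an adjusted p of 0.05 or less (edgeR quasi-likelihood test, Benjamini-Hochberg over 435 bins). With each position and strand counted once per pool, 3 bins passed, and without the NPC line 2 pools of bait 15, 10 did. Without line 1, 1 bin passed, without line 2 none did, without bait 15, 2 did and without bait 7, 26 did (edgeR, with 48 bins at an unadjusted p under 0.05 without line 2). The scale is the total of each class in a pool. Log2 values are means over cell types and treatments with equal weight, whereas counts and percents of a bin are sums over pools. The median bin lay at -0.02 on the log2 scale with total junctions and at -0.64 with TMM scaling. TMM called 149 bins, 146 of them lower, and DESeq2 called 99, all lower.

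The bins with fewer long overlaps held piles of junctions. In 8 of the 10 the busiest 1 kb carried 29.9 to 67.4% of the junctions of the bin, 0 to 7.27% of them were members, and 94.5 to 100% of those with 30 prey bases to score lay in tandem repeats. The clearest was chr10:59500001-60000000, where 27 of 270 junctions were members (10.0%), -1.48 on the log2 scale (edgeR, adjusted p = 0.000165). Its busiest 1 kb held 182 junctions, all with inserted bases, none of them a member, and 87 at a single position. The remainder of that bin held 27 members among 88 junctions (30.7%). At chr12:87500001-88000000, 56 of 470 junctions were members (-1.13 on the log2 scale, edgeR, adjusted p = 0.000202), with 11 of 316 in the busiest 1 kb and 45 of 154 in the rest. At chr5:137000001-137500000, 42 of 308 were members (-1.30 on the log2 scale, edgeR, adjusted p = 0.00177), with 1 of 171 in the busiest 1 kb. The bins starting at chr14:46000001 (25 of 221 junctions), chr7:97500001 (48 of 271), chr5:104500001 (23 of 166), chr14:75000001 (25 of 184) and chr10:121000001 (32 of 224) had similar piles, with adjusted p from 0.00221 to 0.0472 (edgeR). The bin starting at chr15:32000001 had none, with 57 members among 300 junctions (19.0%, edgeR, adjusted p = 0.0437) and at most 4 at a position. It held 3 members among 70 junctions in ESC and 54 among 230 in NPC. The remaining bin, whose position is not described here, held 41 members among 249 junctions. Its busiest 1 kb carried 37.3% of them, with 14% members and 2.33% tandem repeats, and the rest held 17.9% members. Over the 10 bins, members were 3.26 to 12.1% of ESC junctions and 11 to 26.1% of NPC junctions.

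The bins with more long overlaps rested in part on single sites. At chr2:167500001-168000000, 81 of 196 junctions were members (41.3%, 1.53 on the log2 scale, edgeR, adjusted p = 0.000202), and the busiest 1 kb held 31 junctions, all of them members on the minus strand. At chr9:104500001-105000000, 38 of 82 were members (46.3%, 1.97 on the log2 scale, edgeR, adjusted p = 0.00221), of which 21 stood at the chromosome 9 site printed above. In the rest of these 2 bins the shares were 30.3 and 27.9%. The other 3 bins had no such pile. At chr6:118500001-119000000, 61 of 169 junctions were members (36.1%, 1.67 on the log2 scale, edgeR, adjusted p = 0.00163), with at most 3 junctions at a position. At chr11:118500001-119000000 65 of 176 were members (adjusted p = 0.0286, edgeR), and at chr12:33500001-34000000 63 of 168 (adjusted p = 0.0461, edgeR). Over the 5 bins, members were 48.3 to 76.2% of ESC junctions and 29.7 to 36.5% of NPC junctions. The ESC values rest on 21 to 60 junctions a bin. At the chromosome 6 bin 18 of 24 ESC and 43 of 145 NPC junctions were members.

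**Figure D5:**
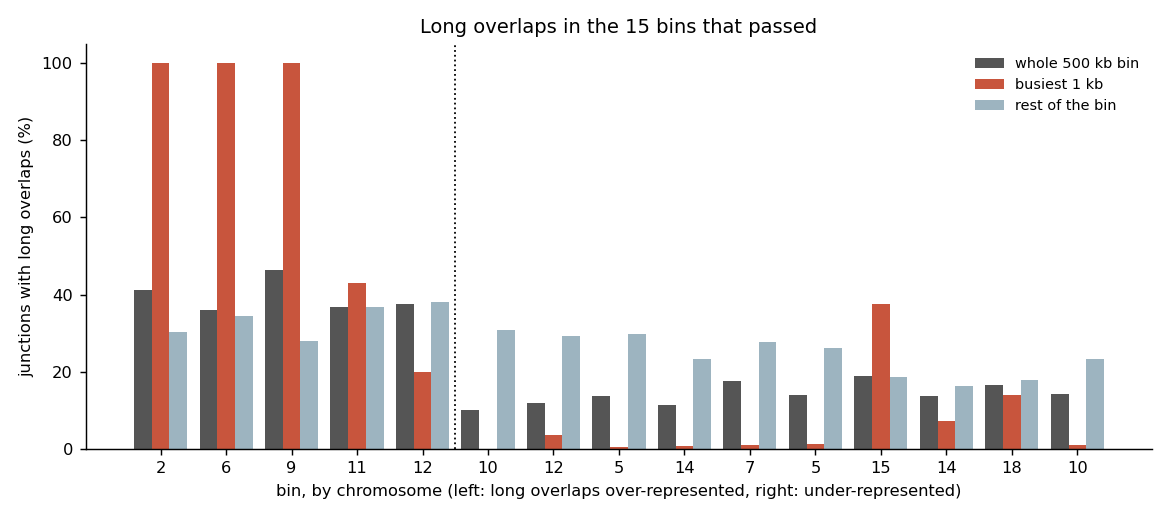
Long overlaps as percent of junctions in the 15 bins that passed, named by chromosome, for the whole bin, its busiest 1 kb and the rest. Left of the dotted line are the 5 bins with more and right of it the 10 with fewer long overlaps. In most bins on the right the busiest 1 kb is near 0 and the rest lies between 16.3 and 30.7%.

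The contrast between long and other junctions differed between NPC and ESC in 4 of 435 bins (0.920%) and between APH and DMSO in 0 (0%, edgeR, with 20 bins at an unadjusted p under 0.05, and 0 by DESeq2). Because fewer than 5 bins passed for cell type, the 5 with the smallest p are described. At chr7:137500001-138000000 long overlaps were 5.36% of ESC and 32.1% of NPC junctions (2.74 on the log2 scale for NPC minus ESC, edgeR, adjusted p = 0.000143). Its busiest 1 kb held 152 of 364 junctions, 1 of them a member and 111 at a single position. At chr5:137000001-137500000 the shares were 4.02 and 26.1% (2.78, edgeR, adjusted p = 0.00148), and at chr7:97500001-98000000 3.26 and 25.1% (3.21, edgeR, adjusted p = 0.00336). At chr6:118500001-119000000 the order was the other way, 75% in ESC and 29.7% in NPC (-2.83, edgeR, adjusted p = 0.0291). The ESC value there rests on few junctions, 18 of 24, against 43 of 145 in NPC. Without line 1 or without bait 15 no bin passed (edgeR, 32 and 22 bins at an unadjusted p under 0.05), without line 2, 2 did and without bait 12, 7 did. The bin chr5:114000001-114500000 missed the threshold (6.38 and 38.8%, edgeR, adjusted p = 0.0513). When the NPC line 2 pools of bait 15 were left out, 3 bins passed, all higher in NPC. With each position and strand counted once per pool, 2 bins passed, both lower in NPC, so none higher in NPC did. For APH minus DMSO the 5 bins with the smallest p had adjusted p from 0.600 to 0.989 (edgeR), led by chr7:38000001-38500000, where 52 of 174 junctions were members.

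Within pools, long overlaps were compared with the other junctions in features other than overlap length. The length of the prey alignment and the bait bases lost come from the same alignments as the overlap. The rule also left out part of the bait chromosome, so these features are not independent of it. None of the 10 comparisons passed after adjustment, in a design whose smallest p is 0.0312. Prey alignments were longer for members by 10.9 bases ± 1.49 in ESC (83.8 against 72.9 bases) and 4.17 ± 0.606 in NPC (75.5 against 71.3), in 6 of 6 pairs each (exact sign-flip test, p = 0.0312, adjusted 0.0893). The overlap itself is part of that length. Beyond the overlap the difference was 5.83 bases ± 2.02 in ESC and 0.333 ± 0.816 in NPC. Against overlaps of 0 to 3 alone it was 0.833 bases in ESC, and that of the whole prey alignment was 5.25 bases. Members sat at positions used more than once in their pool in 30.9% of cases in ESC and 28.8% of the others, a difference of 2.10 points ± 1.81, and in 9.56 and 7.76% in NPC, a difference of 1.80 points ± 1.94 (6 of 6 pairs, exact sign-flip test, p = 0.0312, adjusted 0.0893). Without the NPC line 2 pools of bait 15 that difference was 1.37 points and that of prey length 4.2 bases. Prey on the bait chromosome made up 16.2 and 16.5% in ESC and 15.2 and 15.7% in NPC. When members were set only against overlaps of 0 to 3, they were less often on the bait chromosome by -2.20 points in ESC and -0.82 points in NPC, in both cases at p = 0.0312 (exact sign-flip test, unadjusted). The plus strand held 48.1% of members and 49.3% of the others in ESC, and 48.8 and 49.3% in NPC. The median number of bait bases lost, averaged over pairs, was 8.00 at members and 6.92 at the others in ESC, and 16.7 and 14.9 in NPC.

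Prey sequence was scored over the 30 bases beyond the overlap. Its GC content was 45.4% for members and 44.3% for the others in NPC, higher in 6 of 6 pairs by 1.09 points ± 0.323 (exact sign-flip test, p = 0.0312, adjusted 0.125 over 8 comparisons), and 46.2 and 46.4% in ESC. Tandem repeats of units up to 6 bases made up 6.08% of members and 13.3% of the others in ESC, lower in 5 of 6 pairs by -7.26 points ± 6.35 (exact sign-flip test, p = 0.0625), and 2.94 and 4.92% in NPC, by -1.98 points ± 2.10 (p = 0.0938, exact sign-flip test). The NPC differences without the line 2 pools of bait 15 were 0.994 points in GC content and -2.10 points in tandem repeats. Set only against overlaps of 0 to 3, tandem repeats differed by 0.621 points in ESC and 0.342 in NPC. In that setting GC content was higher for members by 1.87 points in ESC and 1.37 in NPC (exact sign-flip test, p = 0.0312 for each, unadjusted).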

How the data were processed

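Per the labels' protocols, LAM-PCR-mediated HTGTS was used. The submitters' processing notes name Bowtie2 and mm9. Versions and the junction caller were not given in the sources used here. Each row of a deposited table is 1 junction, per the file headers, and every value was counted from these rows as raw junction counts. The authors' column of bait bases past the break gave the break positions. The positions of the rule are the commonest bait alignment starts (chr7:80451956, chr12:13000729 and chr15:86848129), which lie 2, 131 and 79 bases from the last bait base.

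Shares, lengths and features were computed per pool (Python 3.11.15) and compared by exact two-sided sign-flip or permutation tests, adjusted by Benjamini-Hochberg. Mapped letters were used in 19 tables, 5 served as pools only because their letters could not be mapped. Bins were tested with edgeR 4.0.16 (filterByExpr, minimum count 5, a block per pool) after a test on simulated data. TMM had been planned, but its factors followed the class, so total junctions were used. Alternatives included DESeq2 1.42.0, bin sizes, thresholds and left-out pools. Named were the called bins, 10 leading sites, 3 per bait, and 5 overlaps per bait, and those on 1 chromosome are not described. Members and lists were chosen with earlier results of these data known.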

Additional observations from a re-analysis of the deposited data

Results flagged for a closer look

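Some values stood apart from the others of their group, in 5 of 35 groups of 4 or 6 values. Chance flags about 1 in 20 such groups. Among the ESC pools under APH, line 1 bait 12 had the highest share of members with overlaps of 10 or more, 18.3%, far from the rest. Experiment B of NPC line 1 bait 12 under DMSO held 14.2% long overlaps, below the other 3. Experiment A of ESC line 2 bait 7 under APH held 20%, and the other 3 held 24.5 to 25.3%. Experiment D of NPC line 2 bait 12 under DMSO held 27.3%, above 24.1 to 24.6%. Experiment C of NPC line 1 bait 15 under APH held 25.1%, above 24.3 to 24.4%. The contrast of long against other junctions differed between NPC and ESC in 4 bins by an interaction term (edgeR quasi-likelihood test).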

How the results depend on the processing

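Of 334 alternative values over 32 results, 250 kept their direction and their side of the threshold, or stayed within the margin set for counts. The cause of the changes was not tested except where stated. For NPC minus ESC, the share of long overlaps under DMSO and APH was 5.32 and 6.50 points at 3 bases or more, -1.22 and -0.133 at 5 or more, -2.03 and -1.40 at 6 or more, and -2.91 and -1.95 without inserted bases. Line 2 minus line 1 was -0.0464 points at 5 bases or more and -0.396 at 6 or more, and -0.268 to 1.12 when 1 pair was left out. The range between baits was 3.86 points with trimmed overlaps. For mean overlap, APH in NPC gave 0.00187 bases with overlaps capped at 15, 0.00223 without NPC bait 15 of both lines, and -0.0286 to 0.0118 when 1 pair was left out. NPC minus ESC under DMSO and APH gave -0.698 and -0.684 bases without NPC line 2 bait 15, -0.737 and -0.725 without NPC bait 15 of both lines, and -0.783 to -0.677 and -0.706 to -0.545 when 1 pair was left out, where 5 pairs or fewer cannot reach the threshold. Against overlaps of 0 to 3, members differed by -2.20 points in ESC and -0.82 in NPC in bait chromosome, -0.394 in NPC in plus strand, 1.87 in ESC in prey GC, 0.194 in ESC in prey mismatches, and 0.621 in ESC and 0.342 in NPC in tandem repeats. With each position and strand once, plus strand in NPC was -0.537 and prey GC in ESC 0.178. Prey mismatches in NPC were -0.00799 points without the bait chromosome. Without NPC line 2 bait 15, recurrent positions in NPC gave 1.37 points and prey length 4.2 bases. With 1 pair left out, bait bases lost in ESC ran from -0.05 to 1.70, recurrent positions in NPC from 1.24 to 2.08 points, and prey length from 10.6 to 11.3 bases in ESC and 4 to 4.3 in NPC.

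Bins called for long against other junctions numbered 3 with each position and strand once, 39 at 6 bases or more, 149 with TMM and 99 with DESeq2, and 0 to 26 when a line or bait was left out. Those for NPC minus ESC numbered 2 in 250 kb bins, 7 in 1 Mb bins, 2 with each position and strand once (both lower in NPC, against 3 of 4 higher), 21 with TMM, 12 with DESeq2, and 0 to 7 when a line or bait was left out. For APH minus DMSO, 1 bin passed at 6 bases or more. Without the replicate block, the bins numbered 13, 5 and 0. A replicate block by experiment letter gave an APH difference in share of -2.09 points in ESC and -0.803 in NPC. Letters correlated between treatments from -0.997 to 0.752 over 8 line and bait pairs, with 4 letters in each. So few values cannot tell whether experiments with the same letter belong together. ESC pools were shallower than NPC pools, and bins with few junctions were not tested.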
